A study of Homo sapiens with 4 samples.

Results

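The genes that write, maintain, erase and read DNA methylation were compared between wild-type (WT) cells and ZCCHC4 knockout cells, both labelled HepG2. The group was fixed by name and holds 9 genes, namely DNMT1, DNMT3A, DNMT3B, UHRF1, UHRF2, TET1, TET2, TET3 and MBD2. All 9 were found by Entrez identifier among the 16658 genes of the table, and 8 of them passed the filter on low values together with 10726 genes in all. The cells of both groups were labelled HepG2 and untreated, and were grown to below full confluence in one medium before total RNA was sequenced. Each group had 2 libraries. The knockout cells, ZCCHC4 KO1, came from 1 of several CRISPR/Cas9 lines with a frameshift, so effects of the knockout and of that line cannot be told apart. Nothing in the labels says that libraries of a group came from separate cultures, so the p-values measure the spread between libraries, which may be technical.

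In mammalian cells a methyl group is placed on cytosine, mostly where cytosine is followed by guanine (CpG). DNMT3A and DNMT3B set new marks, and DNMT1 copies them to the daughter strand after replication, guided by UHRF1, which binds DNA that is methylated on one strand. TET1, TET2 and TET3 oxidise the mark, which starts its removal, and MBD2 binds methylated CpG and brings in the NuRD complex of histone deacetylases and a chromatin remodeller. Liver tumor cells are known for loss of methylation over much of the genome together with gains at promoters.

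No member passed the test for a difference between ZCCHC4 KO1 and WT cells. With limma on log2(FPKM + 1) and a Benjamini-Hochberg adjusted p below 0.05, 0 of 8 members were called, where 5.98% of all tested genes were called, 4.48% lower and 1.5% higher. At the thresholds of the study, an adjusted p below 0.001 with at least a 2-fold difference, limma called 0 of 8 as well, against 0.0746% of all tested genes. The paper reported far more differential genes at these thresholds, and its methods do not name the test, so the counts cannot be compared. At an unadjusted p below 0.05, 2 members were lower, MBD2 and DNMT1, where 13.9% of tested genes were lower. For 4 of the 8 members, DNMT1, UHRF1, DNMT3A and MBD2, both knockout libraries lay below both WT libraries, as did 28.5% of all tested genes. For 0 of the 8 both lay above, against 23.1% of all tested genes. The median log2 fold change was -0.19 over the 8 members and -0.03 over all tested genes.

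The RNA of the targeted gene was lower in the knockout libraries. A frameshift can leave a transcript, so the RNA level is only a partial check of the labels. Between 10191 and 10693 genes per library had 1 or more FPKM, a fragment count scaled by transcript length and by the total of the library. FPKM keeps no read totals, so the depth is unknown. ZCCHC4 was at 7.22 and 5.44 FPKM in the WT libraries, against 1.08 and 2.29 in the knockout libraries, which on the log2 scale is a difference of -1.48 with a standard error of 0.287 (limma, adjusted p = 0.0448). Its call was lost without WT replicate 1 (-1.30, adjusted p = 0.0921 from limma), with a pseudocount of 0.1 and without the filter. Of 20 hepatocyte markers 12 were listed, and none reached an FPKM of 1 in any library (highest value 0.72), AFP and HNF4A included, so these defining genes of the labelled liver line were at or near 0 in both groups. These values go against the label, and whether the cells are the labelled line was not tested. Within each group the libraries differed along transcript GC content, with a Spearman correlation across 10559 genes of 0.706 for replicate 2 minus replicate 1 in WT and -0.764 in ZCCHC4 KO1.

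**Figure D1:**
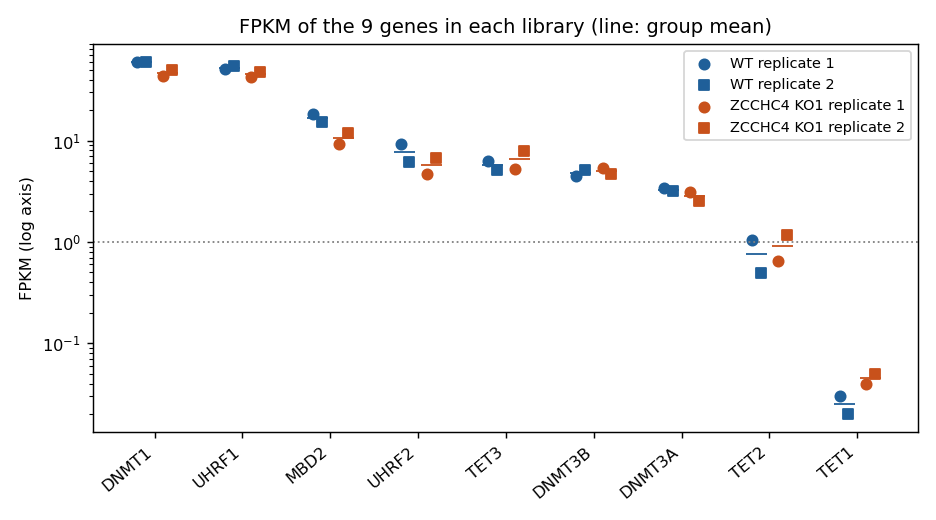
FPKM (vertical log axis) of the 9 genes in each of the 4 libraries, with WT in blue and ZCCHC4 KO1 in orange, circles for replicate 1 and squares for replicate 2, short lines at the group means, and a dotted line at an FPKM of 1, the filter on low values. DNMT1 and UHRF1 lay above 40 FPKM in every library, and TET1 lay between 0.02 and 0.05.

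The members spanned 3 orders of magnitude. FPKM is scaled by transcript length, so their levels are set side by side here. It is not scaled by GC content, along which the libraries differed, so the order of members close in level is uncertain. In WT cells the order from high to low was DNMT1, UHRF1, MBD2, UHRF2, TET3, DNMT3B, DNMT3A, TET2 and TET1. The ranges of the 2 libraries overlapped between UHRF2 and TET3 only, and TET3 and DNMT3B were 0.03 FPKM apart (5.14 against 5.11). In ZCCHC4 KO1 cells TET3 stood above UHRF2, and DNMT1 and UHRF1, TET3 and UHRF2, and UHRF2 and DNMT3B overlapped, as did TET3 and DNMT3B. DNMT1 was above 89.8% of all genes in the table by mean FPKM and TET1 above 12.8%.

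DNMT1, the maintenance methyltransferase, had the highest level of the group. It measured 60.18 and 60.32 FPKM in the WT libraries, against 43.8 and 50.09 in the knockout libraries. The WT libraries were nearly equal, and both knockout libraries lay below them. The log2 fold change was -0.36 (standard error 0.136, 95% confidence interval -0.69 to -0.02, adjusted p = 0.196 from limma), a level 0.781 times that of WT on the log2(FPKM + 1) scale. UHRF1, its guide to replicated DNA, was at 50.52 and 54.06 FPKM in the WT libraries, against 42.81 and 47.26 in the knockout libraries. The groups were separate but close, with a log2 fold change of -0.21 (95% confidence interval -0.54 to 0.12, adjusted p = 0.421 from limma). UHRF1 stood at 0.839 and 0.896 of the level of DNMT1 in the WT libraries, against 0.977 and 0.944 in the knockout libraries. This ratio did not overlap between groups, but with 2 against 2 libraries an exact permutation test cannot go below p = 0.333.

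Both genes are known to follow the cell cycle, so their promoters are shown here with the letters of the sites bound by E2F factors, which drive replication genes at the start of S phase. The windows are RefSeq promoters of GRCh38.p14, from 250 bases before to 50 after an annotated gene start, written 5′ to 3′ on the strand of the gene. The motifs TTTCCCGC, TTTCGCGC, TTTGCCGC and TTTGGCGC were searched on both strands, and capitals mark each match. The DNMT1 window lies at chr19:10194904-10195203 on the minus strand, and the UHRF1 windows with a match at chr19:4909251-4909550 and chr19:4909894-4910193 on the plus strand.
DNMT1: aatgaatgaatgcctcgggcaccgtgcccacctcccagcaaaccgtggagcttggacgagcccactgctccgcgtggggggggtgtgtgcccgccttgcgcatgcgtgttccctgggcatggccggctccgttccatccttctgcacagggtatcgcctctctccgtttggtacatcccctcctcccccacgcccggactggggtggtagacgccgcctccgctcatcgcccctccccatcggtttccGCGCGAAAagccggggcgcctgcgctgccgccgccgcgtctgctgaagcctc
UHRF1, first window: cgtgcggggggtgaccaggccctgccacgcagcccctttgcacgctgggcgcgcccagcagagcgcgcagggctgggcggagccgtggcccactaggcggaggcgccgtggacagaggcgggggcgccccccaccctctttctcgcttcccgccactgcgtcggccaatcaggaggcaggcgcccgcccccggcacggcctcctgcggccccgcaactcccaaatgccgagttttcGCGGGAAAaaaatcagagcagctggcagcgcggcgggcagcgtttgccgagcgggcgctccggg
UHRF1, second window: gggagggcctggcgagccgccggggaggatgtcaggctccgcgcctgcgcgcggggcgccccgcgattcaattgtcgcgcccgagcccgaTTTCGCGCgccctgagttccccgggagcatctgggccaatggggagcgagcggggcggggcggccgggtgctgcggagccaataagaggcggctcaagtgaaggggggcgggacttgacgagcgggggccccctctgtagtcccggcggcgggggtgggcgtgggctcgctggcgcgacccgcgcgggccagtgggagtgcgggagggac
The match in DNMT1 (TTTCGCGC, read on the other strand) began at position -2 from the gene start. In UHRF1 a match to TTTCCCGC on the other strand began at position -14 of its window and one to TTTCGCGC at position -160 of the next. No window searched for the other members held a match, but the windows of DNMT3B, UHRF1 and TET3 lie inside the annotated gene, so that its first base was not covered. Matches were found in 2 of the 9 members, in 13 of 20 proliferation genes with a window, and in 3.99% of all 27305 genes with a window (3.31% of all 35116 windows) or 6.05% of the genes in the expression table. The DNMT1 window held 30 CpG and the 3 UHRF1 windows 36, 40 and, without a match, 46, against a median of 14 over all windows and 23 over genes in the table. A match describes letters only, and binding was not measured here.

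Of 24 proliferation genes 4 were called lower, all of them replication genes, and 0 higher, where 4.48% of all tested genes were called lower. A negative log2 fold change was found for 23 of the 24, against 53.2% of all tested genes, and 15 were below WT in both knockout libraries, against 28.5% of all tested genes. The median log2 fold change of the list was -0.47. The mitotic genes of the list were not called, with values of -0.02 for MKI67, 0.22 for TOP2A, -0.32 for CCNB1 and -0.33 for CDK1. Most replication genes of the list were not called either, among them GINS4 at -0.82, GINS2 at -0.07 and MCM2 at -0.04. A difference between replication and mitotic genes was not tested. MCM6, a subunit of the replicative helicase, fell from 42.49 and 39.32 FPKM to 13.74 and 19.6 (log2 fold change -1.26, adjusted p = 0.0263 from limma). RRM2, GINS1 and MCM4, which supply nucleotides, support the helicase and form part of it, fell by 0.95, 0.95 and 0.80 on the log2 scale (limma, adjusted p = 0.0264, 0.0319 and 0.0378). The genes around these 4 on their chromosomes were not examined, so a shift of their regions was not tested. RRM1 and MCM7, the proliferation genes of the highest level, had values of -0.67 and -0.16 and were not called. Added up over the 24 genes, FPKM came to 2186 and 2125 for WT, against 1474 and 1707 for the knockout. DNMT1 stood at 0.295 and 0.316 of the FPKM of PCNA, the replication clamp, in the WT libraries, against 0.425 and 0.336 in the knockout libraries (exact permutation test, two-sided, p = 0.333). PCNA had a log2 fold change of -0.67 and DNMT1 of -0.36, while other genes of the list, such as MCM2 and MKI67, were nearer 0 than DNMT1. The direction of such a ratio therefore depends on the gene that DNMT1 is set against. The part of proliferation in the levels of DNMT1 and UHRF1 was not tested, and in bulk RNA fewer cells in S phase and less RNA per cell cannot be told apart.

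The de novo methyltransferases were low and close between groups. DNMT3A was at 3.39 and 3.17 FPKM in the WT libraries, against 3.1 and 2.54 in the knockout libraries. The groups did not overlap, but the gap between the nearest libraries was smaller than that between the knockout libraries (log2 fold change -0.17, 95% confidence interval -0.65 to 0.31). DNMT3B was at 4.49 and 5.11 FPKM in the WT libraries, against 5.43 and 4.69 in the knockout libraries, with overlap. Its log2 fold change was 0.06 (95% confidence interval -0.42 to 0.55, adjusted p = 0.892 from limma) and turned to -0.026 without ZCCHC4 KO1 replicate 1 and to -0.015 without WT replicate 1. DNMT1 made up 88.4% and 87.9% of the summed FPKM of the 3 methyltransferases in the WT libraries, against 83.7% and 87.4% in the knockout libraries. That sum was 68.06 and 68.6 in the WT libraries, against 52.33 and 57.32 in the knockout libraries, and nearly all of the difference was DNMT1.

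UHRF2, the relative of UHRF1 that does not stand in for it in maintenance, varied more within groups than between them. It measured 9.25 and 6.11 FPKM in the WT libraries, against 4.73 and 6.8 in the knockout libraries. The groups overlapped, and the log2 fold change was -0.35 (standard error 0.272, 95% confidence interval -1.02 to 0.32). It ranged from -0.62 without WT replicate 2 to -0.09 without WT replicate 1. The transcript of UHRF2 has a GC content of 44.2%, and its replicate 2 minus replicate 1 difference was -0.53 in WT and 0.44 in ZCCHC4 KO1 on the log2(FPKM + 1) scale. TET2 (43.0% GC) and MBD2 (45.1% GC) moved between libraries in the same directions, by -0.45 and 0.40 for TET2 and by -0.26 and 0.34 for MBD2. DNMT1 and UHRF1, at 55.2% and 54.6% GC, differed by at most 0.19 within a group. TET3, at 53.2% GC, differed by -0.24 in WT and by 0.51 in ZCCHC4 KO1, in the same directions as the genes of low GC content.

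Of the TET dioxygenases TET3 had the highest level in every library. TET3 was at 6.27 and 5.14 FPKM in the WT libraries, against 5.27 and 7.95 in the knockout libraries. The groups overlapped (log2 fold change 0.17, 95% confidence interval -0.45 to 0.78), and the value turned to -0.09 without ZCCHC4 KO1 replicate 2. TET2 was at 1.04 and 0.49 FPKM in the WT libraries, against 0.65 and 1.18 in the knockout libraries, so that it passed the filter through 1 library of each group. Its log2 fold change was 0.12 (95% confidence interval -0.47 to 0.71) and turned to -0.105 without WT replicate 2. TET1 was at 0.03 and 0.02 FPKM in the WT libraries, against 0.04 and 0.05 in the knockout libraries. These values are a few steps of 0.01, the last digit of the table, and TET1 was not tested. TET3 made up 85.4% and 91.0% of the summed TET FPKM in the WT libraries, against 88.4% and 86.6% in the knockout libraries. The summed FPKM of the methyltransferases was 9.27 and 12.1 times that of the TET genes in the WT libraries, against 8.78 and 6.24 times in the knockout libraries (exact permutation test, two-sided, p = 0.333, the smallest this design allows for any of the 11 ratios and sums compared).

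**Figure D2:**
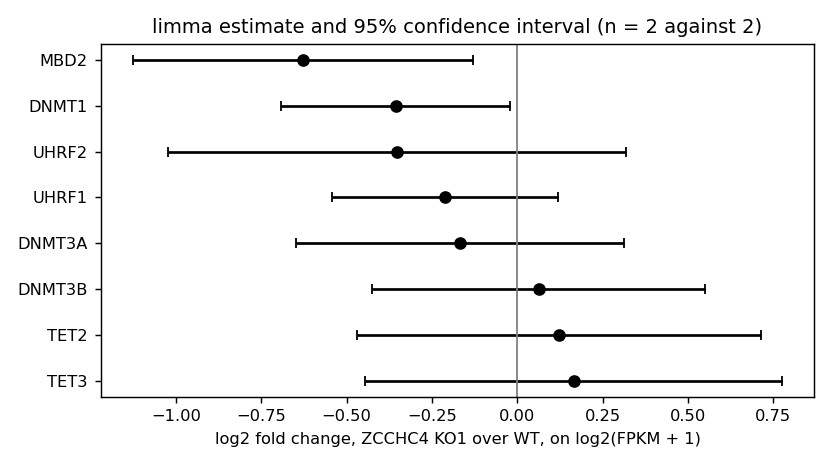
limma log2 fold change of ZCCHC4 KO1 over WT on log2(FPKM + 1) for the 8 tested genes (points) with 95% confidence intervals (bars), from 2 against 2 libraries. The intervals of MBD2 and DNMT1 lie below 0, with adjusted p of 0.14 and 0.196, and the other 6 include 0.

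MBD2, the methyl-CpG reader, had the largest difference of the 8 tested members. It measured 18.49 and 15.31 FPKM in the WT libraries, against 9.26 and 11.98 in the knockout libraries, and the groups did not overlap. The log2 fold change was -0.63 (standard error 0.202, 95% confidence interval -1.13 to -0.13, adjusted p = 0.14 from limma), a level 0.647 times that of WT. MBD2 passed an adjusted p of 0.05 where the trend on GC content was removed from each library (-0.54, adjusted p = 0.0465 from limma). That fit called 1304 of 10559 tested genes lower, against 480 of 10726 without the removal, so more genes of every kind passed. Without ZCCHC4 KO1 replicate 2, which leaves 1 knockout library, the value of MBD2 was -0.80. With the replicate number as a block the adjusted p of MBD2 from limma was 0.486, and with the replicate numbers crossed it was 3.46e-07. In both fits limma gave each gene the variance expected at its level, so neither p-value measures the spread of MBD2 itself. The crossing was chosen after seeing the data, and it called 2309 genes higher and 2986 lower in all. MBD3, the paralog that takes the place of MBD2 in NuRD and binds methylated CpG poorly, was at 50.44 and 60.1 FPKM in the WT libraries, against 63.4 and 53.85 in the knockout libraries. The ratio of MBD2 to MBD3 was 0.367 and 0.255 in the WT libraries, against 0.146 and 0.222 in the knockout libraries.

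The genes around MBD2 on chromosome 18 had a median log2 fold change near that of MBD2, but 1 of 20 was called lower, where 4.48% of all tested genes were. MBD2 lies from 54151606 to 54224669 of GRCh38. Of its 20 nearest tested genes, 10 on each side from 49488481 to 58754477, 18 had a negative log2 fold change, against 53.2% of all tested genes, and their median was -0.62, with single values from -2.62 to 0.22. The difference between MBD2 and that median was -0.0034. The 3 tested genes before MBD2, ME2, SMAD4 and MEX3C, had values of -0.56, -0.69 and -0.68, and the first after it, TXNL1, had -0.70. MEX3C ended at 51197681 and TXNL1 began at 56597209, so even the nearest tested genes lay well away from MBD2. MAPK4 was the 1 neighbour called (log2 fold change -2.62, adjusted p = 0.00312 from limma). MBD1, another methyl-CpG reader among these neighbours, had a value of 0.22. With the GC trend removed the median of the neighbours was -0.54, as was the value of MBD2, and 17 were negative. The median was -0.27 without ZCCHC4 KO1 replicate 1, where MBD2 was at -0.46, and -0.38 without WT replicate 1, where MBD2 was at -0.50. Over all 146 tested genes of chromosome 18 the median was -0.20. The part of the region in the level of MBD2 was not tested, and no DNA was analysed here.

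DNMT1 and UHRF1 both lie on chromosome 19, where 0 of the 20 nearest tested genes of either was called. The 20 nearest tested genes of DNMT1 stood at a median of 0.32 on the log2 scale, 14 of them with a positive value, and those of UHRF1 at 0.22, 16 of them with a positive value. For DNMT1 the median was 0.18 without ZCCHC4 KO1 replicate 1, and for UHRF1 it was 0.12 without that library and 0.11 with the GC trend removed. The difference between a member and its neighbours was not tested. All 690 tested genes of chromosome 19 had a median of 0.16. The medians for the neighbours of DNMT3A, DNMT3B, TET1 and TET3 lay between -0.01 and 0.10. Those of UHRF2 and TET2 were -0.13 and -0.19, with 16 and 14 of 20 genes at a negative value.

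**Figure D3:**
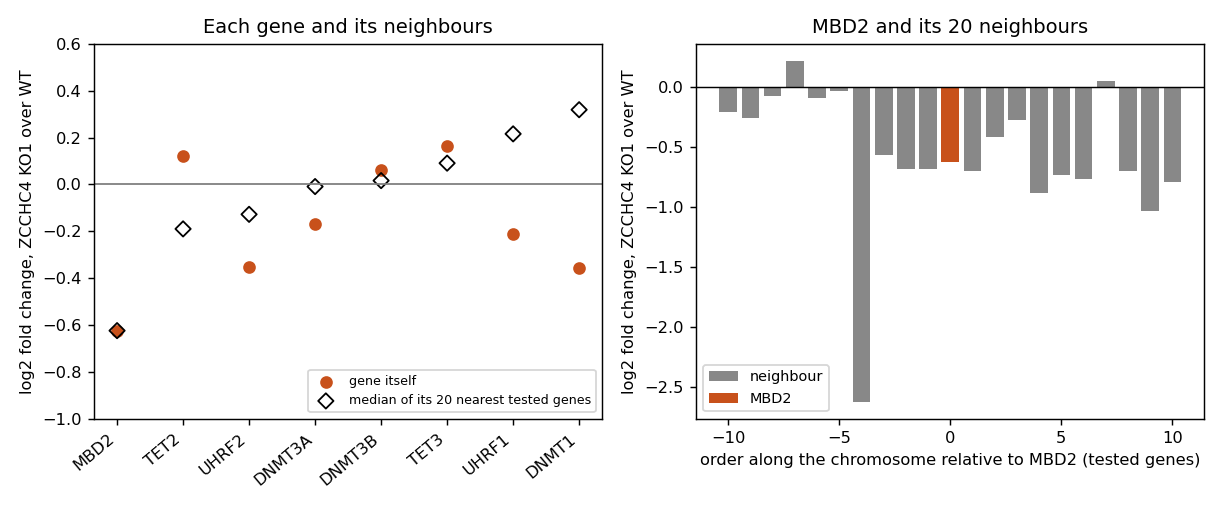
Left, log2 fold change of ZCCHC4 KO1 over WT for each tested gene (orange points) and the median of its 20 nearest tested genes (open diamonds). Right, the log2 fold change of MBD2 (orange bar) and of 10 tested genes on each side in chromosome order (grey bars). MBD2 at -0.63 is next to the median of its neighbours at -0.62, and DNMT1 at -0.36 and its neighbours at 0.32 have opposite signs.

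Over 5 lists of other genes of the pathway 3 of 66 tested genes were called, or 4.55%, a share near the 5.98% of all tested genes. Of 15 tested DNMT family members and cofactors 0 were called, with a median log2 fold change of 0.00. At an unadjusted p below 0.05, 2 were lower, where 13.9% of all tested genes were. TRIM28, a corepressor that keeps imprinted regions methylated, was at 256.93 and 273.46 FPKM in the WT libraries, against 343.42 and 286.04 in the knockout libraries (0.24, adjusted p = 0.408 from limma). EHMT2, a histone methyltransferase, had a value of -0.23 and was not called. Of 8 tested methyl-CpG readers outside the group 1 was called, ZBTB4, a zinc finger protein that binds methylated CpG. It fell from 19.37 and 19.4 FPKM to 9.21 and 9.98 (log2 fold change -0.95, adjusted p = 0.0318 from limma). Of 12 NuRD subunits 1 was called lower, the histone-binding RBBP7 on chromosome X, which went from 209.75 and 203.26 FPKM to 98.77 and 112.56 (-0.96, adjusted p = 0.0185 from limma). The list median for NuRD was -0.02, and CDK2AP1 (-0.39), MTA2 (0.28), CHD4, HDAC1 and HDAC2 were not called.

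Of 14 tested partners of demethylation 1 was called lower and 0 higher, where 4.48% of all tested genes were called lower. At an unadjusted p below 0.05, 2 were lower and 2 higher, against 1494 and 961 of all 10726 tested genes. The called gene was IDH2, the mitochondrial enzyme that makes 2-oxoglutarate, the co-substrate of the TET enzymes. IDH2 was at 19.35 and 22.18 FPKM in the WT libraries, against 8.65 and 6.12 in the knockout libraries (log2 fold change -1.39, adjusted p = 0.0251 from limma). APEX1 and PARP1, which act in base excision repair, had values of -0.11 and -0.24 and were not called. Of the 17 tested genes of the methionine and folate cycle, which supply the methyl group, 0 were called, and the median was -0.24. At an unadjusted p below 0.05, 3 were lower, where 13.9% of all tested genes were. AHCY, which clears the inhibitory product of methylation, was at 133.04 and 151.61 FPKM in the WT libraries, against 197.84 and 167.49 in the knockout libraries (0.36, adjusted p = 0.232 from limma). SHMT2, which feeds the folate cycle from serine, had a value of -0.06 and was not called.

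**Figure D4:**
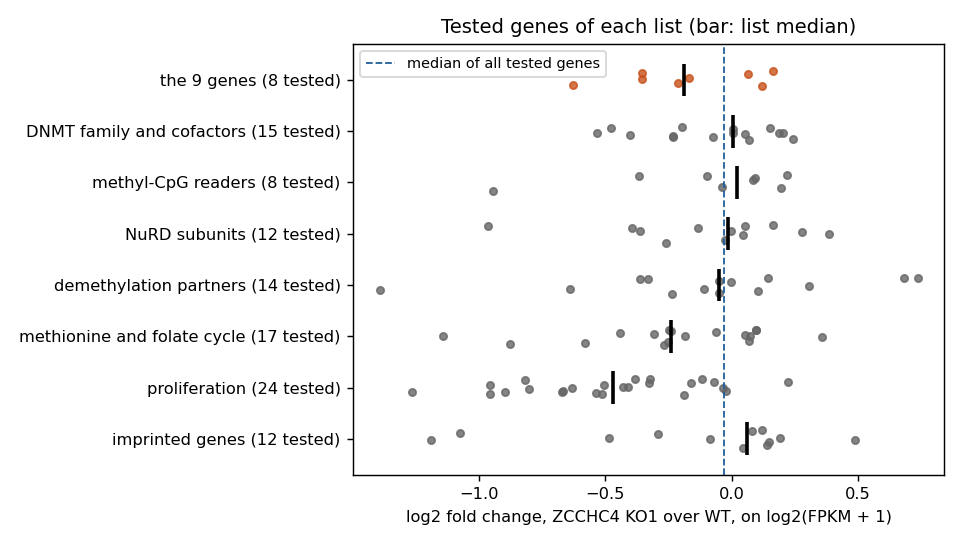
log2 fold change of ZCCHC4 KO1 over WT for each tested gene (points, spread vertically at random) of 8 lists, with a black bar at each list median and a dashed line at the median of all tested genes, -0.03. Of the 8 lists proliferation genes have the lowest median at -0.47, and the 9 genes, of which 8 were tested, have a median of -0.19.

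The sign of each difference was followed over the choices of processing. MBD2, DNMT1, UHRF2, UHRF1 and DNMT3A stayed below WT under the scalings, filters and left-out libraries in which they were tested. DNMT3B, TET2 and TET3 changed sign with a library left out. For MBD2, DNMT1, UHRF1 and DNMT3A the groups did not overlap, so leaving out a library could not change the sign. The filters, the trend and the replicate block leave the estimate as it is. For these genes only the scalings and removal of the GC trend could have changed the sign. MBD2 was the 1 member called under any alternative other than a crossed pairing of the replicate numbers.

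**Figure D5:**
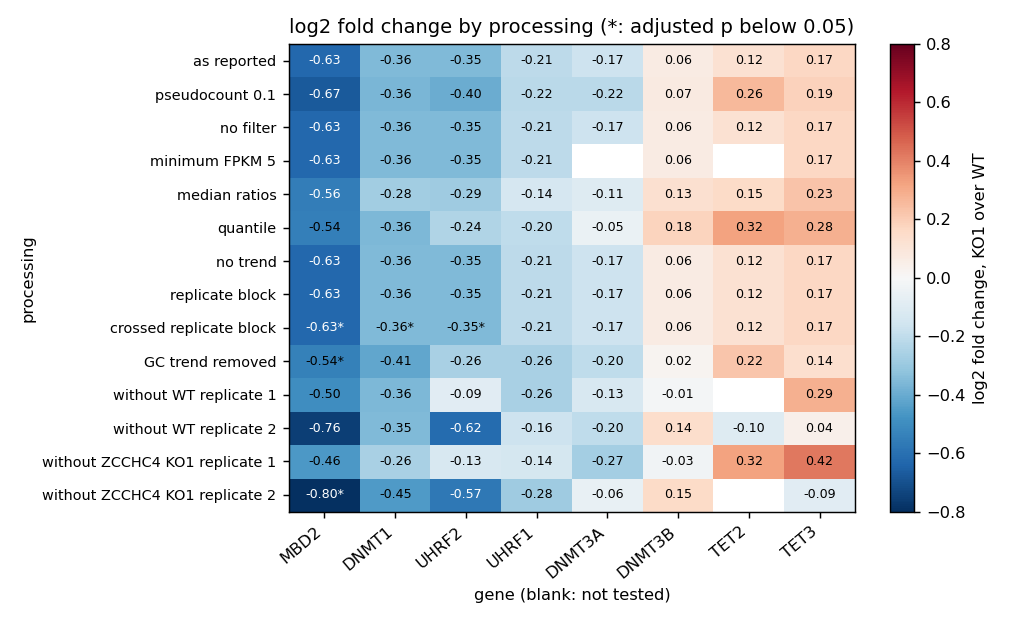
log2 fold change of ZCCHC4 KO1 over WT (number and colour, blue for lower and red for higher) for the 8 tested genes (columns) under each processing (rows), with * where the adjusted p from limma was below 0.05 and blanks where a gene was not tested. MBD2 ranges from -0.80 to -0.46, and TET3 from -0.09 to 0.42.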

How the data were processed

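RNA-seq of WT and ZCCHC4 KO1 cells was compared, with 2 libraries per group. Per the paper's methods the authors aligned reads to GRCh38 with Bowtie2 and ran RSEM on the alignments, and the deposited table gives FPKM to 2 decimals by Entrez identifier; versions, annotation and read filters are not given in the sources used here. Symbols and positions came from RefSeq (GRCh38.p14) and matched 16384 of 16658 identifiers. Transcript GC content, from the longest GENCODE v44 transcript, covered 98.4% of tested genes.

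No count model was applied, since FPKM is not a count. Genes with an FPKM of at least 1 in at least 2 libraries were transformed to log2(FPKM + 1) and tested by limma 3.58.1 under R 4.3.3 (lmFit, eBayes with a trend, two-sided, Benjamini-Hochberg adjustment over all 10726 tested genes), and called at an adjusted p below 0.05. The scale understates changes of low genes. limma was first run on simulated data with known changes and independent noise for each gene. Those data lacked the GC-related differences between the real libraries, so they cannot show that its error rate holds here. The 9 members and the lists of other genes were chosen with earlier results of these data known. The genes named are the members, ZCCHC4, up to 4 called genes and 2 of the highest level in each list, and the 3 genes nearest in profile to the member with the smallest p. Other names (CHD4, HDAC1, HDAC2, AFP, HNF4A, PCNA, MKI67, TOP2A, CCNB1, CDK1, GINS4, GINS2, MCM2 and the neighbours of MBD2) were chosen after their values were seen. No set test was run. The alternatives were another pseudocount, no or a stricter filter, median-ratio and quantile scaling, no trend, the replicate number as a block, removal of the GC trend (natural spline, 4 degrees of freedom), the thresholds of the study, and leaving out each library.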

Additional observations from a re-analysis of the deposited data

How the results depend on the processing

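DNMT1, UHRF1, UHRF2, DNMT3A and MBD2 kept a negative log2 fold change under every alternative in which they were tested, from -0.451 to -0.262 for DNMT1, -0.282 to -0.136 for UHRF1, -0.617 to -0.089 for UHRF2, -0.273 to -0.054 for DNMT3A and -0.797 to -0.458 for MBD2. Except for UHRF2, whose groups overlapped, only the scalings and removal of the GC trend could have changed these signs. Leaving out 1 library gave -0.026 to 0.151 for DNMT3B, -0.092 to 0.422 for TET3 and -0.105 to 0.322 for TET2, so these signs are not settled. Members called lower rose from 0 to 1 (MBD2) with the GC trend removed, and to between 0 and 1 when each library was left out, and stayed at 0 under both scalings, both filters, a pseudocount of 0.1, no trend and the replicate block. No alternative called a member higher. With 1 library left in a group, that library is assumed to vary like the others.

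Over all genes, against 161 higher and 480 lower, there were 2 and 6 at the thresholds of the study, 82 and 262 without a filter, 346 higher with median ratios, 466 and 721 after quantile normalization, 689 and 1304 after removing the GC trend, and 73 to 548 and 143 to 1071 when each library was left out, highest without ZCCHC4 KO1 replicate 2 and lowest without WT replicate 2 and WT replicate 1. Higher genes made up 25.1% of the calls, but 39.3% after quantile normalization and 34.6% after removal of the GC trend. Of the genes on the other lists, 8 lower calls became 0 at the thresholds of the study, 1 without a filter, 16 after quantile normalization, 21 after removing the GC trend and 2 to 23 when each library was left out (2 without either WT library, 23 without ZCCHC4 KO1 replicate 2), and 0 higher calls became 2, 2 and 3 under median ratios, quantile normalization and removal of the GC trend, and 0 to 2 when each library was left out. ZCCHC4 was at -1.476 and not called at the thresholds of the study or without a filter, at -1.923 and not called with a pseudocount of 0.1, and at -1.807 to -1.145 when each library was left out, called in all but the fit without WT replicate 1 (-1.3). Why these values moved was not tested, and the cause was not tested for any member.

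The labels share only replicate numbers between groups, and the replicate 2 minus replicate 1 differences of the groups had a Pearson correlation of -0.797 across genes. With the replicate block 107 genes were higher, 0 members and 5 genes of the other lists were called lower. With the numbers crossed, chosen after seeing the data, 2309 genes were called higher and 2986 lower, with 3 members lower and 8 and 44 genes of the other lists higher and lower. In both of these fits limma gave each gene the variance expected at its level and not its own. Read totals are unknown, and TET1 and TET2 are at levels where 2 decimals and 2 libraries limit what can be seen.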

Other observations

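Genes known to be kept silent by methylation of their promoters were at low levels in both groups. Of 16 germline genes of this kind 9 were listed, and none reached an FPKM of 1 in any library (highest value 0.78, summed FPKM 1.72 and 1.54 in the WT libraries, against 1.17 and 1.48 in the knockout libraries), so none was tested. Of 24 imprinted genes, whose parental copies carry different methylation, 12 were tested. At an unadjusted p below 0.05, 3 were lower and 1 higher, where 13.9% of all tested genes were lower. After adjustment 1 was called lower, where 4.48% of all tested genes were. It was GRB10, an adaptor that restrains insulin signalling, at 4.15 and 4.26 FPKM in the WT libraries, against 1.55 and 1.4 in the knockout libraries (log2 fold change -1.07, adjusted p = 0.0319 from limma). PHLDA2 was at 42.36 and 49.26 FPKM in the WT libraries, against 74.39 and 55.76 in the knockout libraries, and GNAS at 758.82 and 766.22 and at 551.74 and 537.74, and neither was called. The median of the 12 was 0.06. DNA methylation was not measured here.

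The 3 tested genes nearest to MBD2 in profile over the 4 libraries, by Euclidean distance of centred log2(FPKM + 1), were TSPAN13, UBXN8 and OSGEPL1, at distances of 0.0202, 0.025 and 0.0255. Within a distance of 0.1 there were 38 genes of 10676, so the likeness is shared by many.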
